A study of Mus musculus with 4 samples.

Results

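The ELOVL family of fatty acid elongases, encoded in the mouse by Elovl1 to Elovl7, was followed across brown and white fat of WT and ASK1-deficient mice. Its members were taken as the probes that carry these 7 gene names on the array, which gave 7 of 34763 genes and 9 of 55681 probes, with 2 probes each for Elovl1 and Elovl4 and 1 for each of the others. RNA was measured on 4 one-colour Agilent arrays. They held interscapular brown adipose tissue (iBAT) of WT mice, iBAT of ASK1-deficient mice (labelled ASK1KO), epididymal white adipose tissue (eWAT) of WT mice and eWAT of ASK1-deficient mice. ASK1 is a stress-responsive kinase that acts upstream of p38 and JNK, and the ASK1-deficient mice lack it in the whole body. The strain was C57BL/6J. All mice were males of 10 weeks under normal conditions, and each array received Cy3-labelled cRNA made from 100 ng of RNA pooled from 3 mice. With 1 pool on 1 array for every condition, variation among mice could not be estimated, and within a tissue nothing could be tested. The WT and ASK1-deficient mice were bred separately, so a difference between the lines and the loss of ASK1 cannot be told apart.

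The study asked what ASK1 does in adipose tissue, and elongases bear on a fat whose fuel is fatty acid. ELOVL enzymes sit in the endoplasmic reticulum and catalyse the first and rate-limiting step of elongation, the condensation of an acyl-CoA with malonyl-CoA. The product is then reduced, dehydrated and reduced again by enzymes that all elongases share, so that the ELOVL protein sets which chain is lengthened. ELOVL1, ELOVL3, ELOVL6 and ELOVL7 act on saturated and monounsaturated chains, whereas ELOVL2 and ELOVL5 act on polyunsaturated chains, and ELOVL4 makes the longest ones in retina, skin and brain. Elovl3 is known as a cold-induced gene of brown fat, and Elovl6, which lengthens palmitate to stearate, as a lipogenic target of SREBP-1c.

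All 9 Elovl probes were 60 bases long, were spotted once on each array, and carried no outlier flag and no saturated signal. A stretch of the probes of the 4 genes whose values the results turn on is printed 5′ to 3′ in the sense of the transcript, to show which part of each transcript was read. The build of the array files is mm9, and the probes lie at chr4:118104741-118104800 and chr4:118105163-118105222 (Elovl1), chr19:46209762-46209821 (Elovl3), chr9:77832205-77832264 (Elovl5) and chr3:129341248-129341307 (Elovl6), all on the plus strand. Capitals mark AATAAA or ATTAAA, the letters of a polyadenylation signal, which are held by 13.7% of all probes on the array. Exons were not assigned to these positions.
Elovl1, bases 1 to 30 of probe A_55_P2022861: attgcccacctaagtgcctcaggactgcac
Elovl1, bases 26 to 55 of probe A_55_P2151273: acttgtgtcttaATTAAAgtgacgggaaac
Elovl3, bases 5 to 34 of probe A_51_P324633: tggtaggcgcttAATAAAtgtcttttacag
Elovl5, bases 1 to 30 of probe A_51_P505493: ctcaatacaaaaattataacatttgatagt
Elovl6, bases 1 to 30 of probe A_51_P463440: cctaggccctaaacccatattcagagggaa
The Elovl3 probe holds AATAAA at its bases 17 to 22 and the second Elovl1 probe holds ATTAAA at its bases 38 to 43, whereas the other 7 probes hold neither.

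Proximal promoters are shown for Elovl5 and Elovl6, which, besides Elovl3, were the members measured on both iBAT arrays that gave a lower value in ASK1-deficient iBAT. Each runs from 250 bases before to 50 bases after the start site and was taken from RefSeq on GRCm38.p6. Capitals mark every match, on either strand, to the letters searched. These were the cAMP response element TGACGTCA, the E-box CACGTG, the sterol response element TCACNCCAC, the CCAAT box, the NR4A element AAAGGTCA and the nuclear receptor core AGGTCA. The direct repeats of this core with a spacing of 1 or 4 bases were searched as well, and the core overlaps both repeats and the NR4A element.
Elovl5, GRCm38.p6 chr9:77917115-77917414, plus strand: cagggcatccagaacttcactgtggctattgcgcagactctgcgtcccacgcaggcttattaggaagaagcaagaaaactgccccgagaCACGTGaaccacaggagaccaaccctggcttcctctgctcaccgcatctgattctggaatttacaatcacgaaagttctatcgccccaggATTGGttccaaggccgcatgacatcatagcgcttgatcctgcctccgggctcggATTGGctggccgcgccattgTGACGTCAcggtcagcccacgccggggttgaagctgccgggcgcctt
Elovl6, GRCm38.p6 chr3:129532136-129532435, plus strand: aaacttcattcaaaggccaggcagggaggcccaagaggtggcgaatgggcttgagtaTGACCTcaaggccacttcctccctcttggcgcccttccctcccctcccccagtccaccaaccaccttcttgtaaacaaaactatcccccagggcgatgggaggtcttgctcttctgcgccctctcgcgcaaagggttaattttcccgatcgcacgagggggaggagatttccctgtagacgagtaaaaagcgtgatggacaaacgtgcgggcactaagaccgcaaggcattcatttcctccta
The Elovl5 window holds the cAMP response element from 4 to 11 bases after the start site, and 1.79% of the 32851 promoters of the table hold these letters. It also holds an E-box, as do 7.15% of promoters, and 2 CCAAT boxes on the minus strand, and 37.4% of promoters hold at least 1 of these. The Elovl6 window holds 1 such core, 193 to 188 bases before the start site and on the minus strand, and 16.3% of promoters hold one. The sterol response element (1.24% of promoters), the NR4A element (1.51%) and the direct repeats (0.0396% at a spacing of 1 and 0.0152% at 4) did not match in either window. Promoters were at hand for 6 of the 7 members, all but Elovl3. Among those not shown, Elovl1 also held the nuclear receptor core and a CCAAT box, at different start sites. Elovl4 held an E-box and a CCAAT box.

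Between 28985 and 33389 of the 55681 probes were well above background on an array, which is the mark the scanner software gives a spot that clearly exceeds its surroundings. Signals are intensities in the scanner's units before any scaling between arrays, and different probes were not compared with each other. The 75th percentile of the signal was 356 (WT) and 371 (ASK1-deficient) for the iBAT pools and 673 and 634 for the eWAT pools, so that a raw signal reads higher in eWAT than the scaled values that follow. A log2 ratio is the difference between 2 arrays after each array's 75th percentile had been subtracted. A gene counts as called where it is at least 2-fold apart and well above background on both arrays, so that a bound is not counted. The SD of such a ratio between spots of one probe was 0.09 for the iBAT pair of arrays and 0.06 for the eWAT pair (median over probes spotted repeatedly). Where the mean signal was under 100 it was 0.23 and 0.22. This is technical spread within an array and leaves out the mice. Of the 2 Map3k5 probes, which encode ASK1, one read 448.0 against 117 for WT against ASK1-deficient iBAT and 701 against 194 for eWAT, and the other differed by −0.06 and −0.51 on the log2 scale. Where these probes lie relative to the disrupted part of the gene was not established. Brown adipocyte markers were all detected in both iBAT pools (12 of 12), and white adipocyte markers in both eWAT pools (8 of 8).

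**Figure D1:**
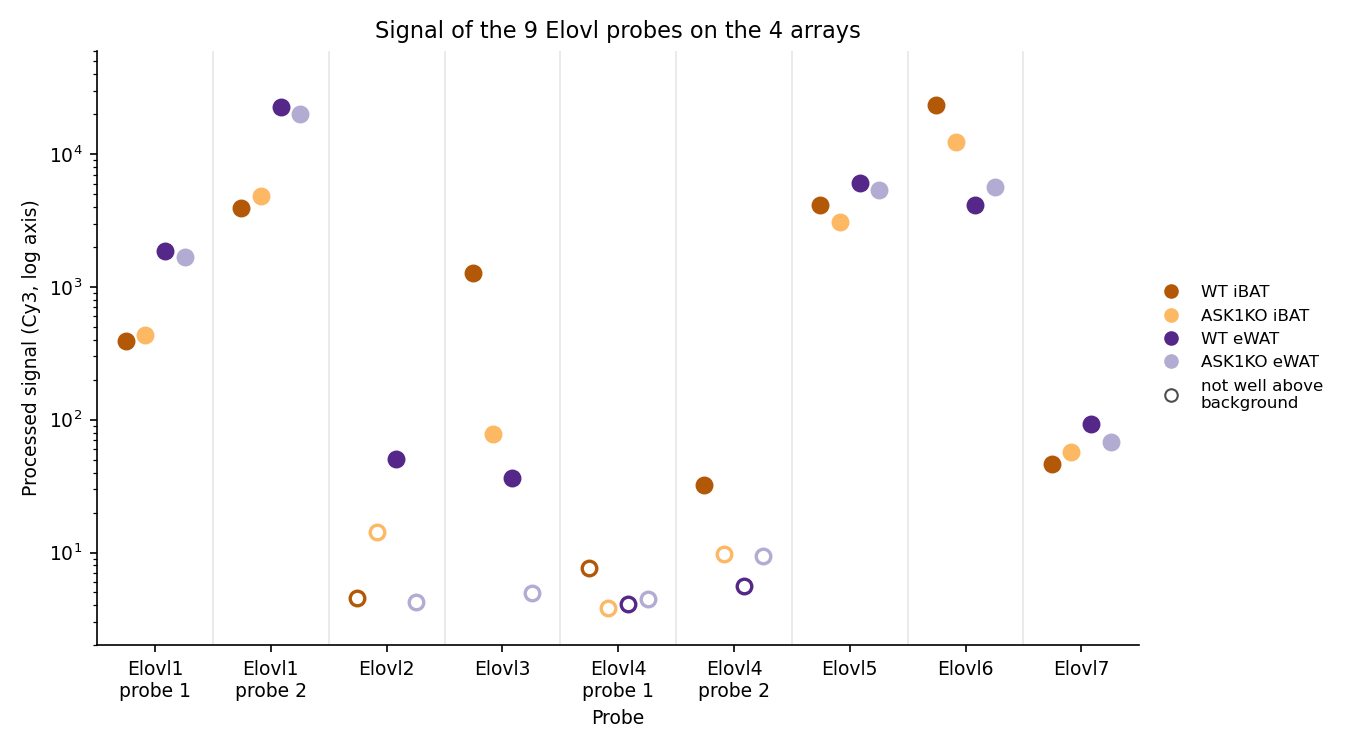
Processed signal of each of the 9 Elovl probes (horizontal axis) on the 4 arrays, on a log axis in scanner units and before scaling between arrays. Each point is 1 array and open points are not well above background. The Elovl3 probe reads 1276 for WT iBAT and 77.4 for ASK1-deficient iBAT, the Elovl6 probe is highest in WT iBAT (23535), both Elovl1 probes are higher in eWAT, and both Elovl4 probes and the Elovl2 probe are dim.

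In ASK1-deficient iBAT, Elovl3 ranked lowest of all 20474 genes relative to WT. WT iBAT gave a signal of 1276, against 77.4 for the ASK1-deficient iBAT pool, 36.6 for WT eWAT and 4.99 for its ASK1-deficient counterpart. WT iBAT thus stood far above the other arrays, and ASK1-deficient eWAT was the array on which the probe was not well above background. The log2 ratio between genotypes in iBAT was −4.10, which is 17.2-fold lower and 47.2 times the median technical SD. With normexp background correction it was −3.15, or 8.86-fold lower. In eWAT, the WT signal was at least 1.66-fold higher than the ASK1-deficient one, which is a bound set by the dim array. The expression of this gene, which makes very long saturated and monounsaturated chains, rests on 1 probe and 1 spot per array.

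Each of the 12 brown adipocyte markers listed differed less than Elovl3 in iBAT, as did every other gene measured there. The 12 markers had a median log2 ratio of −0.24, against −0.04 over all genes, and their summed scaled level was 4269 for WT against 3604 for ASK1-deficient iBAT. Ucp1, the uncoupling protein, differed by −0.44 and Cidea, a lipid droplet protein, by −0.18. Dio2, which activates thyroid hormone, was the 1 marker called of 12, at −2.37, beside 0.943% of all genes called lower (1.82% either way). In eWAT the 12 markers summed to 52.7 for WT against 17.8 for ASK1-deficient mice, with Ucp1 at −4.63 and Cidea at −2.23. Of the 10 measured there, 9 lay below 0 and 1 above, with a median of −0.84 against 0.03 over all genes. The 4 called were all lower, where 0.741% of all genes were. Prdm16 differed by −0.11 and Zic1 by 0.40. Elovl3 stood lower in the ASK1-deficient pool of both depots, beside brown markers of which most were lower too. The part of the number of brown adipocytes was not tested. In RNA of a whole tissue, fewer cells of a type and less RNA per cell cannot be told apart.

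Elovl6 was the second elongase with a large difference in iBAT. WT iBAT gave a signal of 23535, against 12357 for the ASK1-deficient iBAT pool, 4142 for WT eWAT and 5647 for its ASK1-deficient counterpart. Both iBAT arrays exceeded both eWAT arrays, yet ASK1-deficient iBAT was lower than WT iBAT while ASK1-deficient eWAT was higher than WT eWAT. The log2 ratio between genotypes was −0.99 in iBAT, which is 1.99-fold lower and just short of the 2-fold threshold. It was 0.53 in eWAT, or 1.45-fold higher. In iBAT 0.972% of genes had a lower ratio than Elovl6, and in eWAT 2.37% had a higher one. The iBAT ratio exceeded the threshold with normexp background correction, with median centring (−1.07) and in the authors' series table (−1.08). It fell further short of it with quantile normalization (−0.81), with the 75th percentile over commonly detected probes (−0.89) and without scaling (−0.93).

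The other elongases of saturated and monounsaturated chains differed little between genotypes. Elovl1, which supplies very long chains for ceramides, gave signals of 389.7, 434, 1868 and 1675 at its first probe and 3939, 4878, 22772 and 19992 at its second, in the order WT iBAT, ASK1-deficient iBAT, WT eWAT and ASK1-deficient eWAT. Both probes were higher in eWAT than in iBAT, and within a tissue the genotypes lay close together. The mean log2 ratio of the 2 probes between genotypes was 0.17 in iBAT and −0.09 in eWAT, or 1.96 and 1.42 times the median technical SD. Elovl7, read at chr13:109073556-109073615, was dim, with 46.7 on the WT iBAT array, against 57.3 for the ASK1-deficient iBAT pool, 92.5 for WT eWAT and 68.0 for its ASK1-deficient counterpart. The genotypes differed by 0.24 (iBAT) and −0.36 (eWAT) on the log2 scale, where spots of probes this dim had a median SD of 0.23 and 0.22 and a highest SD of 0.42 and 0.40. With normexp the iBAT value was −0.0048.

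Of the elongases of polyunsaturated chains, only Elovl5 was well above background on all 4 arrays. WT iBAT gave a signal of 4140.0, against 3056 for the ASK1-deficient iBAT pool, 6010 for WT eWAT and 5326 for its ASK1-deficient counterpart. It was lower in ASK1-deficient iBAT by 1.41-fold (log2 ratio −0.50, with 6.04% of genes lower), while the eWAT ratio of −0.09 was 1.45 times the median technical SD. Elovl2, a gene best known from liver and testis, was read at chr13:41277884-41277943 on the minus strand and gave 4.58 on the WT iBAT array, against 14.4 for the ASK1-deficient iBAT pool, 50.6 for WT eWAT and 4.23 for its ASK1-deficient counterpart. It was well above background in WT eWAT alone, where it was at least 2.30-fold higher than in ASK1-deficient eWAT and at least 1.36-fold higher than in WT iBAT. All 10 hepatocyte markers were detected in WT eWAT and 5 of 10 in ASK1-deficient eWAT. Albumin, the main plasma protein made by hepatocytes, gave 3234 and 158 there, against 7.50 and 115 in WT and ASK1-deficient iBAT. The summed scaled level of that list was 71.2, 69.7, 464 and 430 on the 4 arrays, most of it Cyp2e1, which was close to equal between the genotypes (log2 ratio −0.18 in iBAT and −0.00 in eWAT). The part of liver transcripts in the Elovl2 signal was not tested.

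Elovl4 was at the edge of detection. One of its probes, at chr9:83673253-83673312 on the minus strand, gave 32.1 on the WT iBAT array, against 9.71 for the ASK1-deficient iBAT pool, 5.58 for WT eWAT and 9.38 for its ASK1-deficient counterpart, and it was well above background in WT iBAT alone. WT iBAT was at least 1.94-fold higher than ASK1-deficient iBAT and at least 3.21-fold higher than WT eWAT. The other Elovl4 probe, at chr9:83672645-83672704, gave 7.70, 3.79, 4.10 and 4.43 and was not well above background on any array. Of the 6 markers of skin and sebaceous gland, where Elovl3 and Elovl4 are also expressed, 5 were detected on every array, at a summed scaled level of 1.49 for WT and 1.22 for ASK1-deficient iBAT and of 1.23 and 1.21 for eWAT. Awat2, the sebaceous wax synthase of that list, was not detected on any array.

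**Figure D2:**
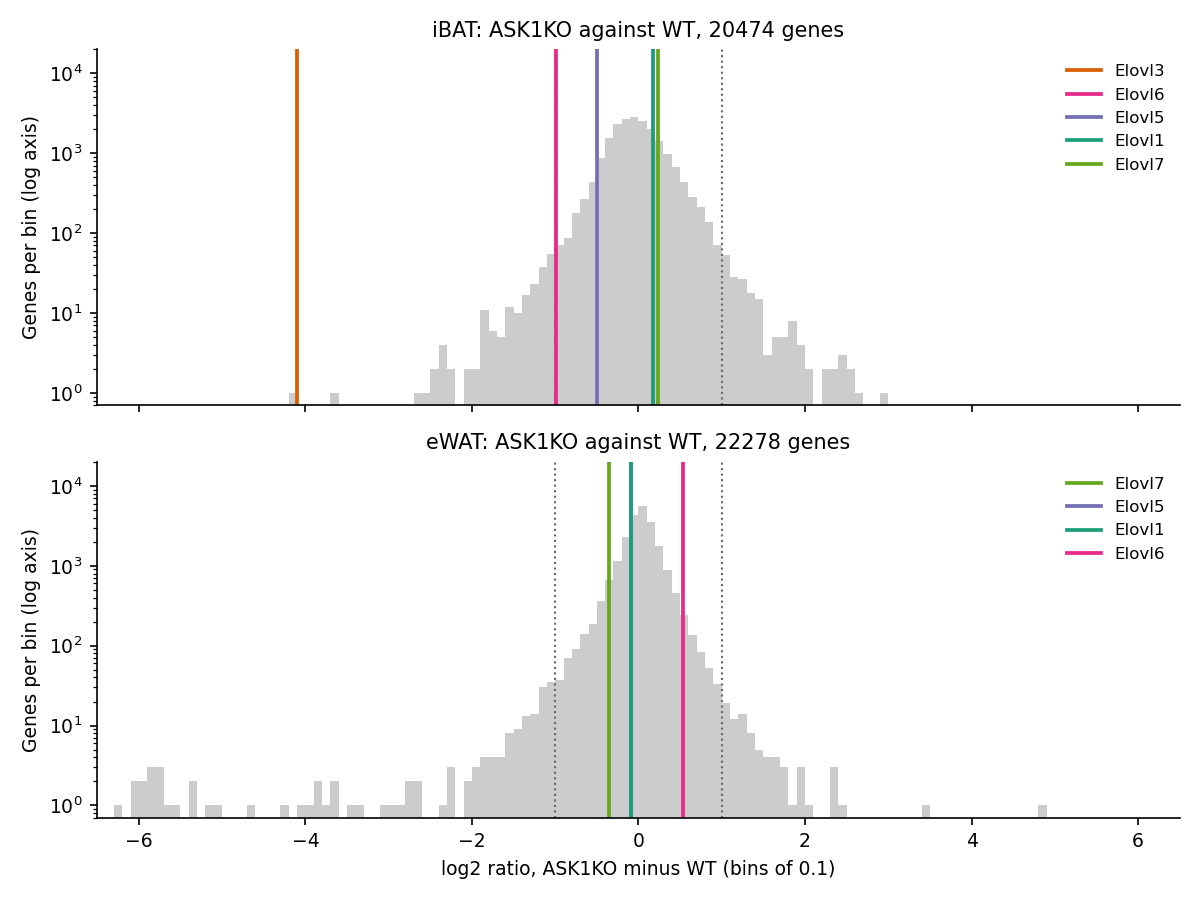
Log2 ratio of ASK1-deficient over WT for all genes well above background on both arrays (grey histogram, bins of 0.1, genes per bin on a log axis) in iBAT above and eWAT below, with the Elovl genes as coloured lines and the 2-fold thresholds dotted. In iBAT the Elovl3 line (−4.10) lies at the far end of the distribution and Elovl6 (−0.99) at its lower flank. In eWAT Elovl6 (0.53) lies on the upper flank and the Elovl1 and Elovl5 lines (both −0.09) coincide.

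In counts, 1 of the 5 Elovl genes measured in iBAT was called between genotypes, Elovl3, and it was lower. Over all 20474 genes, 0.874% were called higher, 0.943% lower and 1.82% either way. The split of 179 higher and 193 lower turned with the scaling, to 254 and 137 with the 75th percentile over commonly detected probes, 135 and 245 with median centring and 132 and 249 in the series table. In eWAT 0 of 4 were called, with no test behind this count, against 0.359% higher, 0.741% lower and 1.1% either way of 22278 genes. Elovl2 and Elovl3 were not among these 4, being dim in ASK1-deficient eWAT. Their bounds there were at least 2.30-fold and at least 1.66-fold lower than WT. The median log2 ratio of the Elovl genes was −0.50 in iBAT (5 genes) and −0.09 in eWAT (4 genes), beside −0.04 and 0.03 over all genes. When genotype was fitted over both tissues with limma, which takes its effect as equal in both, 0 of the 4 Elovl genes well above background on all arrays and 0.0% of 19971 genes passed an adjusted p of 0.05 in either direction, although 1206 genes had an unadjusted p under 0.05. The 4 Elovl genes had adjusted p between 0.911 and 0.986. Elovl3 was not well above background on all 4 arrays and was not among them.

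The sign of the genotype ratio differed between the depots for some members. For Elovl6, the iBAT ratio minus the eWAT ratio was −1.53, and 0.275% of the 19981 genes measured in both had a lower difference. For Elovl5 it was −0.41 (13.5% of genes lower), with both ratios below 0. Elovl1 (0.26, with 17.5% of genes higher) and Elovl7 (0.59, with 5.48% higher) were above 0 for iBAT and below 0 for eWAT. With 1 pool per condition these differences could not be tested.

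Among the members measured on both WT arrays, 3 differed by more than 2-fold between the depots. Elovl4 was not measured in eWAT, and its brighter probe was at least 3.21-fold higher in WT iBAT. In WT mice Elovl3 was 65.9-fold higher in iBAT than in eWAT (log2 ratio 6.04), against 19.0-fold (4.25) with normexp, and its WT eWAT signal of 36.6 compares with a lowest signal well above background of 18.9 on that array. Elovl6 was 10.8-fold higher (3.43), and Elovl1 was 2.78-fold lower in iBAT (−1.48). Without scaling between arrays the log2 ratios were 2.51 for Elovl6 and −2.40 for Elovl1. Elovl5 (0.38) and Elovl7 (−0.07) differed by less than 2-fold. These were 3 of 5 measured members called, 2 higher and 1 lower, against 27.9% of 20301 genes either way, 16.8% higher and 11.0% lower. Without scaling between arrays this split of 3414 higher and 2243 lower became 942 and 7326. Where all 4 arrays had to be well above background, Elovl3 was not measured and 2 of 4 members were called. In ASK1-deficient mice Elovl6 was 3.73-fold higher in iBAT (1.90) and Elovl1 2.33-fold lower (−1.22), while Elovl5 (−0.03) and Elovl7 (0.53) were not called. Without scaling Elovl6 stood at 1.13 and Elovl1 at −1.99. This gave 2 of 4 called, 1 in each direction, against 23.0% of 20865 genes either way, 12.6% higher and 10.4% lower (2631 and 2165, or 793 and 6586 without scaling). For Elovl3 the ASK1-deficient iBAT signal was at least 6.38-fold above the dim eWAT one.

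With tissue fitted over all 4 arrays and genotype as a second term, limma called Elovl6 higher in iBAT by 2.66 on the log2 scale (SE 0.35, adjusted p = 0.00197) and Elovl1 lower by −1.35 (SE 0.15, adjusted p = 0.0011). Elovl5 (0.18, adjusted p = 0.396) and Elovl7 (0.23, adjusted p = 0.336) were not called. Without scaling between arrays, which moved the median of all genes by −0.92 in WT and by −0.77 in ASK1-deficient mice, limma called Elovl5 (−0.67, adjusted p = 0.0102) and Elovl7 (−0.62, adjusted p = 0.048) lower in iBAT, and with normexp it called Elovl7 higher (0.44, adjusted p = 0.0121). Thus 2 of 4 members passed, 1 in each direction, where 54.5% of 19971 genes passed, 33.4% higher and 21.1% lower in iBAT. Only 1 residual degree of freedom stood behind these p-values, so that they rest on the spread pooled over genes. Skeletal muscle markers were summed at 536 in both iBAT pools and at 8.49 and 4.32 in WT and ASK1-deficient eWAT, and macrophage markers at 15.0 and 18.8 in iBAT and at 112 and 105 in eWAT. Their part in the depot contrast was not tested.

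The enzymes that complete the elongation cycle were next compared. Of the 7 genes in this list 6 were measured, and Tecrl was not detected on any array. In iBAT the 6 had a median genotype log2 ratio of −0.28, against −0.04 over all genes, and 5 of them lay below 0. Hsd17b12, the reductase of the first reduction, was the 1 member called of 6, where 1.82% of all genes were called. WT iBAT gave a signal of 10679, against 4906 for the ASK1-deficient iBAT pool, 8644 for WT eWAT and 8731 for its ASK1-deficient counterpart. After scaling, the genotypes differed by −1.18 in iBAT and by 0.10 in eWAT on the log2 scale.

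Among the dehydratases, Hacd2 differed by −0.72 in iBAT and 0.29 in eWAT, the highest eWAT ratio of the list. Hacd1 differed by −0.21 and 0.01, and Hacd3 by −0.29 and −0.05, the lowest eWAT ratio. Tecr, the enoyl reductase of the last step, differed by −0.26 in iBAT and 0.07 in eWAT. Hacd4 alone was higher in ASK1-deficient iBAT, by 0.70, with signals of 71.0 (WT) and 103 (ASK1-deficient) for iBAT and of 1357 and 1240.1 for eWAT at its brighter probe. It stood beside 6 macrophage markers that were all above 0 in iBAT (median 0.65), whose part was not tested. The eWAT median of the partners was 0.05, beside 0.03 over all genes.

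Genes of fatty acid synthesis, which make the malonyl-CoA and palmitate that elongases use, differed in opposite directions in the 2 depots. All 8 were measured. In iBAT all 8 had a genotype ratio below 0, with a median of −0.71, and in eWAT all 8 had a ratio above 0, with a median of 0.32. Markers shared by all adipocytes had a median of −0.29 in iBAT (4 of 6 below 0) and 0.08 in eWAT (5 of 6 above 0), and the macrophage markers one of 0.65 in iBAT (6 of 6 above 0) and −0.05 in eWAT (6 of 6 below 0). Their part in the fatty acid synthesis values was not tested. Under each of the 7 other scalings or corrections of the arrays the 8 also lay below 0 in iBAT and above 0 in eWAT. Fasn, fatty acid synthase, gave 21571 on the WT iBAT array, against 7757 for the ASK1-deficient iBAT pool, 14286 for WT eWAT and 20370.5 for its ASK1-deficient counterpart. It differed by −1.54 between genotypes in iBAT, which made it the 1 member called of 8 there, and by 0.60 in eWAT, the highest of the list. Over all genes 1.82% were called in iBAT and 1.1% in eWAT.

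The other genes of the list had the same signs. Acly, which makes cytosolic acetyl-CoA, differed by −0.88 in iBAT and 0.48 in eWAT, and Slc25a1, the mitochondrial citrate carrier, by −0.93 and 0.16. The carboxylases that form malonyl-CoA differed by −0.65 and 0.40 (Acaca) and by −0.32 and 0.26 (Acacb, the highest iBAT ratio). Thrsp, a lipogenic regulator, differed by −0.42 and 0.11, the lowest eWAT ratio. Elovl6 at −0.99 and 0.53 lay within the range of these 8 genes in both depots. Pooled over the depots none of the 8 was called for genotype by limma (0.0% of genes were), with a lowest adjusted p of 0.926. The list had earlier results of these data behind its choice and is a description.

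The iBAT over eWAT ratio of these genes was lower in the ASK1-deficient mice for all 8. In WT mice iBAT exceeded eWAT at least 2-fold for 6 of 8, as for 16.8% of all genes, and the median of the log2 ratios was 1.40. In ASK1-deficient mice 1 was higher (Acacb) and 1 lower (Me1), where 12.6% of all genes were higher and 10.4% lower, with a median of 0.25, while the median over all genes was 0.19 in WT and 0.10 in ASK1-deficient mice. The count in WT rested on the scaling. Without scaling between arrays it was 1 higher and 1 lower of 8, against 1 higher and 2 lower in ASK1-deficient mice, with medians of 0.48 and −0.52, and with quantile normalization or cyclic loess 4 of 8 were higher in WT. Fasn stood at 1.51 in WT and −0.62 in ASK1-deficient mice, Hsd17b12 at 1.23 and −0.06 and Elovl6 at 3.43 and 1.90. Limma called 4 of the 8 higher in iBAT and 1 lower, where it called 33.4% of all genes higher and 21.1% lower. These contrasts use the same 4 arrays as the genotype ratios, so that a lower depot ratio and opposite genotype ratios are one observation.

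**Figure D3:**
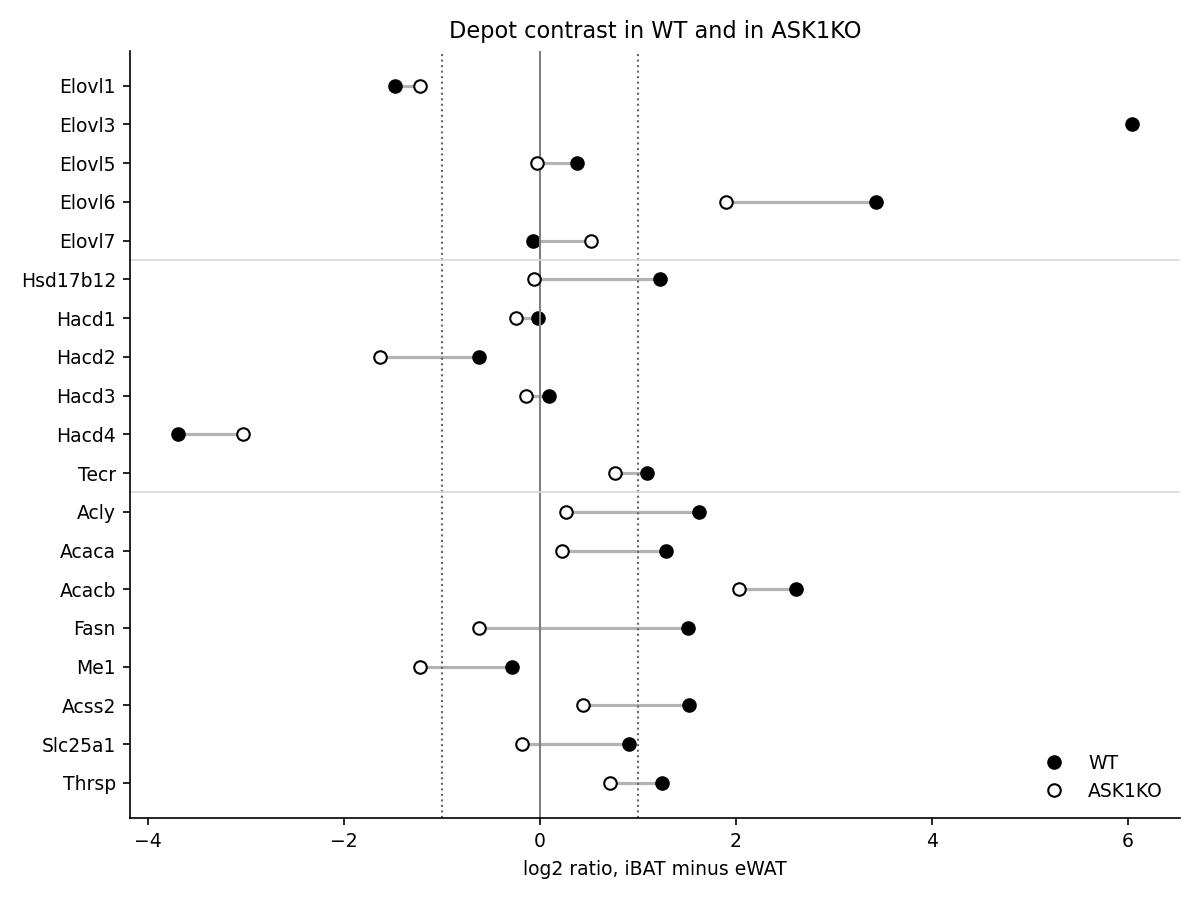
Log2 ratio of iBAT over eWAT (horizontal axis) in WT (filled) and ASK1-deficient mice (open) for the measured Elovl genes, the elongation cycle partners and the fatty acid synthesis genes, each set between grey lines, with the 2-fold thresholds dotted. The open point lies left of the filled one for all 8 fatty acid synthesis genes, for Elovl6 (3.43 and 1.90) and for Hsd17b12 (1.23 and −0.06). Elovl3 has no open point because it was not well above background in ASK1-deficient eWAT.

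The regulators of lipogenesis all stayed within 2-fold in the mean over their probes. All 10 were measured and none was called between genotypes in either depot, where 1.82% of all genes were called in iBAT and 1.1% in eWAT, the median being −0.22 in iBAT and −0.07 in eWAT. Srebf1, which encodes SREBP-1, was the lowest in iBAT at −0.56, with signals of 1302 (WT) and 919 (ASK1-deficient) for iBAT and of 1848 and 1722 for eWAT (−0.01). Srebf2, the sterol regulator, had the highest mean in iBAT at 0.24, but its 2 probes disagreed there. The brighter one differed by −0.73 (206 in WT, 129.6 in ASK1-deficient iBAT) and the dimmer one by 1.21 (40.5 and 97.8). Srebf2 was also the lowest in eWAT at −0.47, and Insig2, which retains SREBPs in the endoplasmic reticulum, the highest in eWAT at 0.28. Ppara, a nuclear receptor of fatty acid oxidation, differed by 0.03 between genotypes in each depot, and iBAT exceeded eWAT by 4.60 in WT and by 4.61 in ASK1-deficient mice.

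Desaturases, which introduce the double bonds that separate the substrates of the elongases, showed no common direction. Of 9 genes 8 were measured, Fads6 was not detected, and 4 lay above and 4 below 0 in each depot. In iBAT Fads1, a front-end desaturase of polyunsaturated chains, was the highest at 0.39. Scd2 was the lowest at −0.56, close to Scd1 at −0.55, and both encode stearoyl-CoA desaturases, which use the product of ELOVL6. In eWAT Fads3 was the highest at 0.24 and Fads2 the lowest at −0.45. The medians were 0.13 and 0.01.

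Acyl-CoA synthetases activate fatty acids before elongation. Among those measured on both arrays, 1 member was called in each depot, where 1.82% of all genes were called in iBAT and 1.1% in eWAT. In iBAT 10 of 12 were measured, with a median of −0.32 and 6 below 0. Acsl5, a long-chain synthetase, gave 7403 on the WT iBAT array, against 2508 for the ASK1-deficient iBAT pool, 2448 for WT eWAT and 2140 for its ASK1-deficient counterpart, and was the lowest of the list in iBAT at −1.62. After scaling, iBAT exceeded eWAT by 2.52 on the log2 scale in WT and was at the 2-fold threshold in ASK1-deficient mice. Acsbg1 was the highest at 0.40, the mean of 0.85 at one probe and −0.06 at another. In eWAT 9 were measured, with a median of −0.12. Slc27a5, the bile acyl-CoA synthetase of liver, was the lowest measured on both arrays at −2.69, beside the hepatocyte markers given above, whose part was not tested, and Acsl1 the highest at 0.48. Slc27a2, a very long chain synthetase that is also in the brown adipocyte list, gave 269.7 in WT eWAT and 10.9, not well above background, in ASK1-deficient eWAT, at least 12.2-fold lower.

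Genes that use or degrade very long chains, ceramide synthases and peroxisomal enzymes and transporters, held 0 called members, beside 1.82% of all genes in iBAT and 1.1% in eWAT. Of 14 genes 13 were on the array, 11 were measured in iBAT and 12 in eWAT, with medians of −0.07 and 0.01. Ehhadh, the peroxisomal bifunctional enzyme, was the highest in iBAT at 0.50 and the lowest in eWAT at −0.09. Abcd2, a peroxisomal transporter of very long chains, was the highest in eWAT at 0.26.

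**Figure D4:**
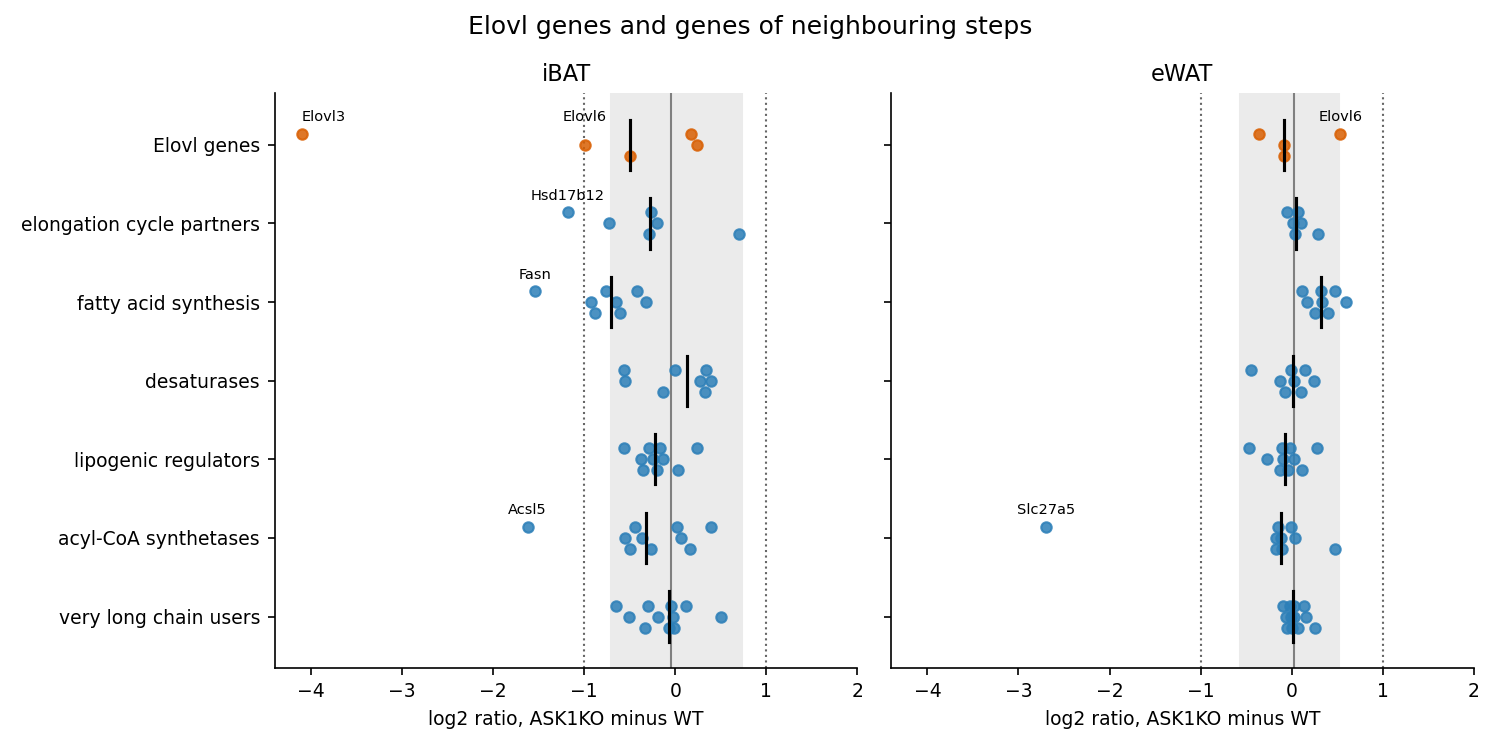
Log2 ratio of ASK1-deficient over WT for the Elovl genes (orange) and the genes of 6 lists of neighbouring steps (blue) in iBAT (left) and eWAT (right). Each point is 1 gene, black bars are medians of a list, the grey band holds the central 95% of all genes, the grey line is their median and the dotted lines the 2-fold thresholds. The fatty acid synthesis points lie left of the grey line in iBAT and right of it in eWAT. The genes plotted past 2-fold are Elovl3, Hsd17b12, Fasn and Acsl5 in iBAT and Slc27a5 in eWAT. Genes not well above background on both arrays, such as Elovl2 and Slc27a2 in eWAT, have no point.

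Genes with profiles most like those of the Elovl genes were ranked by the root mean square difference between the 4 log2 values, each gene centred on its own mean. For Elovl3 the nearest of 21080 genes were Mfsd2a, a lysophospholipid transporter, at 0.64, Dio2 at 1.08 and Slc25a34 at 1.10. These differences take the Elovl3 value of ASK1-deficient eWAT, which was not well above background, as if it were measured, so that their sizes and order depend on a dim signal. The centred values of WT and ASK1-deficient iBAT were 4.74 and 0.64 for Elovl3 and 5.02 and 1.42 for Mfsd2a. They were 4.51 and 2.13 for Dio2 and 3.34 and 1.40 for Slc25a34. For Elovl6 the nearest of 19970 were an array transcript without a symbol (NAP092820-001) at 0.10, Tmem37 at 0.12 and Gys2, the liver-type glycogen synthase, at 0.16. Elovl1 was nearest to Capn5 (0.01), Arhgap44 (0.02) and Fignl1 (0.02), Elovl5 to Zfp92 (0.01), Skint5 (0.02) and Ap1b1 (0.02), and Elovl7 to Tcp11l1 (0.02), Gm6569 (0.02) and Egfl7 (0.03).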

How the data were processed

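RNA of iBAT and eWAT from WT and ASK1-deficient mice was measured on 4 one-colour arrays, grouped by the labels. The authors deposited the output of Agilent Feature Extraction 10.7.3.1 per array. The processed signal deposited there is a linear intensity, corrected for background and not scaled between arrays, with dim spots set to surrogate values. They also deposited a series table of linear signal values. For 100% of its spots, within 0.1%, dividing the processed signals of an array by 1 constant gave these values, whose median is 1. All 4 arrays lay on 1 slide and in 1 scan. The hybridization was done by a service provider, per the study's methods, which name no normalization.

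The log2 processed signal was taken, control spots and outlier spots were left out, repeated spots were averaged per probe, and each array was brought to a common level by subtracting its 75th percentile. Ratios of a gene's probes were averaged where both arrays read them well above background. A probe dim on 1 array gave a bound, for which the dim level was raised to that array's detection floor where it lay under it. Of 34844 gene names 22146 matched the RefSeq table (GRCm38.p6), and older names were updated. Positions are on mm9, and no genome of that build was used. Genes at least 2-fold apart were counted, as were, after Benjamini-Hochberg adjustment, genes at p under 0.05 in limma with tissue and genotype in 1 fit over 4 arrays. The alternatives were normexp with an offset of 50, quantile normalization, cyclic loess, no scaling, the series table, median centring, a 75th percentile taken over commonly detected probes, a 1.5-fold threshold, unadjusted p, only the brightest probe per gene, and a looser and a stricter dim-probe filter. The Elovl genes are named whatever their values. Of the 6 lists, members at least 2-fold apart between genotypes and the highest and lowest of each list and tissue are named, except for 1 that is not reported here, with some neighbours chosen after their values were seen, and of all genes the 3 most alike to each Elovl gene well above background on at least 3 arrays. The members and lists were chosen with earlier results of these data known. There is 1 array per condition, which limits the precision, and the steps were tested on simulated data. Lists of markers for 10 cell types were also described, and 1 or fewer of 7 epididymis markers was detected on an array. Schwann cell markers were summed at 18.7 to 38.1 and lymphocyte markers at 3.32 to 4.57, white adipocyte markers at 56.0 and 47.7 in iBAT and 555 and 574 in eWAT, and markers of all adipocytes at 1679 to 1864. The software was R 4.3.3 with limma 3.58.1 and Python 3.11.15 with pandas 2.3.3, numpy 2.4.6 and matplotlib 3.10.9.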

Additional observations from a re-analysis of the deposited data

Results flagged for a closer look

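Elovl6, Elovl1 and Elovl7 had genotype ratios of opposite sign in the 2 depots, each larger than the median technical SD of its tissue. The difference, iBAT minus eWAT, in the log2 ratio of ASK1-deficient over WT was −1.53 for Elovl6, 0.256 for Elovl1 and 0.592 for Elovl7. None of these differences was tested, since each condition is 1 pool. For Elovl7 the ratio in iBAT, 0.24, was about the size of the SD of 0.23 between spots of probes with a signal under 100, and with normexp it was −0.0048, so that the signs were then no longer opposite.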

How the results depend on the processing

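The number of Elovl genes at least 2-fold apart between genotypes in iBAT, 1, became 2 with normexp, with median centring, with the series table and at 1.5-fold, each time by the addition of Elovl6. It became 3 without a filter on dim probes (Elovl2, Elovl3 and Elovl4) and 0 when all 4 arrays had to be well above background, since Elovl3 then dropped out. In eWAT the count of 0 became 2 without a filter. Between depots, the count of 3 in WT became 5 and the count of 2 in ASK1-deficient mice became 4 without a filter. Limma called 4 Elovl genes for tissue in place of 2 without scaling, 3 with normexp (Elovl7 added), and 3 without a filter or with 1 array well above background as enough. In these last fits Elovl3 was added (adjusted p = 0.00244 and 0.0137), with its dim value taken as measured. For genotype it called 0 Elovl genes under every alternative. Median centring called 222 of all genes for genotype and 170 were called from the series table, and the others called 0, and 1206 had an unadjusted p under 0.05.

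Over all genes, the 372 apart in iBAT became 133 with normexp, 1897 without a filter and 1795 at 1.5-fold. The 245 in eWAT became 77, 1739 and 951 in the same order, and 149 where all 4 arrays had to be well above background. The 5657 between depots in WT became 14421 without a filter and 9897 at 1.5-fold. The 4796 in ASK1-deficient mice became 7379 without scaling, 7919 without a filter and 9078 at 1.5-fold. Without scaling the median of all genes between depots moved by −0.92 in WT and by −0.77 in ASK1-deficient mice.

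Of 178 values of single Elovl genes under the alternatives, 120 moved by less than the technical SD and 58 by more, and no called one changed sign. The dim-probe filters could not move these values, nor could the brightest-probe setting for a gene with 1 probe. Among ratios not called, Elovl7 changed sign between genotypes in iBAT (−0.0048 with normexp). Between depots Elovl7 changed sign in WT (0.36 with normexp) and ASK1-deficient mice (−0.25 without scaling), and Elovl5 in WT (−0.54 without scaling). The iBAT ratio of Elovl3 ran from −4.19 to −3.15 and that of Elovl6 from −1.08 to −0.81. The adjusted p for tissue ran from 5.55e-08 to 0.0208 for Elovl1 and from 9.25e-27 to 0.0353 for Elovl6 in limma. That of Elovl5 ran from 0.0102 (without scaling) to 0.941 and that of Elovl7 from 0.0121 (normexp) to 0.546. No paired analysis was possible because the labels carry no replicate numbers that could pair pools across groups, and the limma fit holds tissue and genotype as its only terms. With 1 array per condition no array could be left out within a tissue, and blocking on the slide was not run because there was a single one. Probes such as those of Elovl2, Elovl4 and Elovl7 are limited by signal over background.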
